A study of Drosophila melanogaster with 382 samples.

Results

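Embryos of the 2.4x bcd line were set against embryos of the hb RNAi line at cycle 14D, the blastoderm stage at which cell membranes grow in between the nuclei. The comparison was defined by the labels alone: it takes the 85 slices of the 4 embryos carrying these line and stage labels, out of 382 slices of 25 embryos in the series. The 2.4x bcd group held 2 embryos of 20 slices each, and the hb RNAi group held 2 embryos of 21 and 24 slices. A slice is a cryosection across the anteroposterior axis, and the RNA of each slice was made into 1 RNA-seq library.

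The 2.4x bcd embryos came from a single transgenic line with an eGFP-Bcd fusion, whose Bcd level is given as 2.4 times that of wild type, and from young mothers. The hb RNAi embryos came from sibling-mated F1 females that carried the maternal tubulin Gal4 driver and UAS-shRNA-hb and had been aged before embryos were collected. The driver acts in the mother's germ line, so the knockdown targets the hb RNA of the egg. The 2.4x bcd embryos were collected at 25C, and the mothers of the hb RNAi embryos were aged at 25C. All 4 embryos were fixed in methanol, cut at the same slice width, extracted with TRIzol and made into libraries with SMARTseq2 and no carrier RNA. The 2 bcd RNAi embryos of cycle 14D were made with the same driver, kit and slice width, and their values are given for context. Wild-type and zld embryos were made with another kit and slice width, so the comparison holds no control embryo of its own kit. Transgene, driver, strain background and the age of the mothers change together between the lines and cannot be told apart.

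Bicoid is a homeodomain protein made from RNA held at the anterior tip of the egg. It spreads into a gradient that turns on the anterior gap genes, hunchback among them. Hunchback is a zinc-finger protein supplied both by the mother and by the zygote, and it sets the borders of the trunk gap genes Krüppel (Kr), knirps (kni) and giant (gt). The gap genes then place the stripes of the pair-rule genes. By their labels, the 2.4x bcd line holds more of the anterior activator and the hb RNAi line less maternal RNA of 1 of its targets.

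Values were present for 79 of the 85 slices. In the 2.4x bcd line, embryo 1 had all 20 slices, and embryo 2 had 16, without its first and its last slice. In the hb RNAi line, embryo 1 had all 21 slices and embryo 2 had 22. Estimated from the steps between FPKM values, the 2.4x bcd embryos held medians of 3060000 and 3350000 fragments per slice, against 3910000 and 6220000 in the hb RNAi embryos. Replicates of the lines differed in how alike they were. The median absolute difference between the 2 embryos of a line was 0.30 log2 units in 2.4x bcd and 0.50 in hb RNAi, with 0.26 in bcd RNAi. Differences of more than 1 log2 unit between the embryos were found for 313 genes (5.23%) in 2.4x bcd and for 1132 genes (18.9%) in hb RNAi. Between the means of the 2 lines, 379 genes (6.34%) differed by more than 1 log2 unit. This was fewer genes than between the 2 hb RNAi embryos. Means of 2 embryos vary less than single embryos, so the 2 counts are not on the same scale.

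The RNAs of both perturbed genes had higher means in 2.4x bcd, and neither passed the test over the whole embryo. FPKM, fragment counts scaled to transcript length and to the mapped fragments of the slice, were averaged over the slices of each embryo. The means were compared with limma on log2(FPKM + 1) over 5979 genes, and a gene was called at an adjusted p under 0.05. The bcd gene (FBgn0000166, chromosome 3R from 6755842 to 6759466 in genome release 6) averaged 11.3 and 4.21 FPKM in the 2.4x bcd embryos, against 0.723 and 0.622 FPKM in the hb RNAi embryos. All 4 values were low and the groups did not overlap. The difference was 2.26 ± 0.46 log2 units (SE, n = 2 embryos each; limma adjusted p = 0.0624). Whether fragments of the fusion transgene counted toward bcd was not tested.

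The hb gene (FBgn0001180, chromosome 3R from 8690980 to 8697822) averaged 42.5 and 48.4 FPKM in 2.4x bcd and 29.9 and 19.2 FPKM in hb RNAi. The groups did not overlap, and the difference of 0.89 ± 0.33 log2 units did not pass (SE; limma adjusted p = 0.353). The slices were also split by position into 3 equal regions, anterior, middle and posterior, and the largest hb difference was in the middle. There hb averaged 35.5 and 24 FPKM in 2.4x bcd, against 2.56 and 0.160 FPKM in hb RNAi, a difference of 3.89 ± 0.62 log2 units (SE; limma adjusted p = 0.0526). In the anterior region hb had 29.2 and 31.9 FPKM in 2.4x bcd, against 28.4 and 6.70 FPKM in hb RNAi. In the posterior region, where zygotic hb has a stripe of its own, it had 61.8 and 92.5 FPKM in 2.4x bcd, against 58.9 and 52.6 FPKM in hb RNAi. The difference within embryos between the middle and the ends was 3.14 ± 0.79 log2 units and did not pass over all genes (SE; limma adjusted p = 0.953).

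Over the whole embryo 52 genes were called. Of the 5979 genes tested, 20 were higher in 2.4x bcd (0.335%) and 32 were lower (0.535%), and the median difference over all genes was 0.04 log2 units. At an unadjusted p under 0.05, 397 genes were higher and 280 lower. The number called depended on single embryos. It was 11 without 2.4x bcd embryo 1, 9 without 2.4x bcd embryo 2, 173 without hb RNAi embryo 1 and 722 without hb RNAi embryo 2. Leaving out any of the 4 embryos in turn kept 6 calls: AttD, CG12200 and w, which were higher in 2.4x bcd, and Or2a, Ppt1 and pst, which were lower. Every other whole-embryo call was lost without at least 1 embryo. Most were lost whichever of the 2.4x bcd embryos was left out.

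The genes higher in 2.4x bcd were led by CG12200, an uncharacterized gene on chromosome X (FBgn0031018, from 19475063 to 19476055). It had 118 and 91.7 FPKM in the 2.4x bcd embryos, against 0.627 and 1.80 FPKM in the hb RNAi embryos. Both hb RNAi embryos were near 0, and the difference was 5.62 log2 units (limma adjusted p = 0.000625). AttD (FBgn0038530, 3R from 17625268 to 17626086) encodes attacin-D, an antimicrobial peptide of the immune response. It had 19.3 and 39.0 FPKM in 2.4x bcd, against 0.0219 and 0 FPKM in hb RNAi, a difference of 4.82 log2 units (limma adjusted p = 0.000956). The eye pigment transporter white (w; FBgn0003996, X from 2790599 to 2796466), also used as a marker in transgenes, had 37.7 and 32.1 FPKM in 2.4x bcd and 1.91 and 1.46 FPKM in hb RNAi. Its difference was 3.74 log2 units (limma adjusted p = 0.00165), and the groups did not overlap. Which fragments came from a transgene cannot be told from these values.

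The 7 other leading genes differed by 2.50 to 3.80 log2 units. The highest FPKM of them was that of Tango8, named for a role in transport and Golgi organization. It had 234 and 243 FPKM in 2.4x bcd and 14.6 and 32.7 FPKM in hb RNAi. Its annotated span is short, on 2R from 18311822 to 18311998, and it was not among the genes tested with kallisto TPM. CG5804 had 5.34 and 16.5 FPKM in 2.4x bcd, against 0.05 and 0 FPKM in hb RNAi. The trans-spliced mod(mdg4) segment pre-mod(mdg4)-AE, on 3R from 21365609 to 21368279, had 14.1 and 18 FPKM in 2.4x bcd and 1.17 and 0.550 FPKM in hb RNAi. None of these groups overlapped. The segment shares exons with other segments of the same locus, and fragments could be split among them. CG34283, CG30010, CG15312 and CG3709 completed the leading 10, with 19.5 to 44.1 FPKM in the 2.4x bcd embryos and 0.483 to 7.51 FPKM in the hb RNAi embryos.

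Of the remaining 10 higher genes, 4 are given here, chosen after their values were seen. Taf11, a subunit of the TFIID complex of RNA polymerase II initiation, had 126 and 137 FPKM in 2.4x bcd and 39.9 and 33.8 FPKM in hb RNAi, a difference of 1.81 log2 units. The glucosyltransferase rumi, which modifies Notch, had 85.1 and 68.3 FPKM in 2.4x bcd and 17.6 and 25.0 FPKM in hb RNAi. DNA ligase 3 (lig3) had 38.0 and 39.2 FPKM in 2.4x bcd, against 9.14 and 4.45 FPKM in hb RNAi. P5cr, an enzyme of proline synthesis, had 14.6 and 14.4 FPKM in 2.4x bcd, against 3.56 and 1.40 FPKM in hb RNAi. None of the gap, pair-rule, segment polarity or Hox genes described below was among the 20.

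The genes lower in 2.4x bcd were led by Arc1 (FBgn0033926, 2R from 14357927 to 14360297), whose protein forms capsids like those of retroviruses and carries RNA between cells. It had 0.624 and 0.182 FPKM in 2.4x bcd, against 73.2 and 19 FPKM in hb RNAi. The hb RNAi embryos differed from each other but both stood far above the 2.4x bcd embryos, and Arc1 fell by 4.80 log2 units (limma adjusted p = 0.00386). The lysosomal enzyme gene Ppt1 (FBgn0030057, X from 8688627 to 8690227), a palmitoyl-protein thioesterase, had 2.38 and 2.55 FPKM in 2.4x bcd and 56.9 and 94.2 FPKM in hb RNAi. It fell by 4.42 log2 units (limma adjusted p = 0.000758). The virus resistance gene pastrel (pst; FBgn0035770, 3L from 7357275 to 7360263) had 0.203 and 0.536 FPKM in 2.4x bcd, against 20.3 and 19.1 FPKM in hb RNAi. The odorant receptor gene Or2a (FBgn0023523, X from 2246231 to 2247567) had 0.112 and 0.0831 FPKM in 2.4x bcd and 10.8 and 10.5 FPKM in hb RNAi. The 2 hb RNAi embryos were nearly equal for pst and for Or2a.

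The other leading lower genes differed by 2.99 to 3.65 log2 units. NimC4, a receptor of phagocytes for apoptotic cells, had 1.10 and 4.16 FPKM in 2.4x bcd, against 34.8 and 37.4 FPKM in hb RNAi. AOX3, an aldehyde oxidase, had 0.355 and 0.0844 FPKM in 2.4x bcd and 9.76 and 7.58 FPKM in hb RNAi. CG31278 and CG14684 lie antisense to each other on 3R, from 10707398 to 10708340 and from 10706974 to 10707460. SMARTseq2 does not mark strand, so fragments from the short stretch where they overlap cannot be told apart. They had 0.331 and 0.287 FPKM and 0 and 0.112 FPKM in 2.4x bcd, against 11.1 and 21.3 FPKM and 6.6 and 9.59 FPKM in hb RNAi. CG4398 and CG32243 had 0 to 3.01 FPKM in the 2.4x bcd embryos and 15.7 to 28.2 FPKM in the hb RNAi embryos.

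The 22 remaining lower genes, again chosen for mention after their values were seen, held 1 pair-rule gene, fushi tarazu (ftz), described with its group. They also held the glutathione transferases GstD5 and GstT3. GstT3 had 26.4 and 39.2 FPKM in 2.4x bcd, against 133 and 144 FPKM in hb RNAi. Gasz, a mitochondrial protein of the piRNA pathway, had 3 and 4.40 FPKM in 2.4x bcd, against 24 and 26.8 FPKM in hb RNAi. The germline gap junction gene zero population growth (zpg) had 3.59 and 6.80 FPKM in 2.4x bcd, against 32.7 and 28.2 FPKM in hb RNAi. For both genes the lines did not overlap, and the zpg values of the 2.4x bcd embryos were farther apart than those of Gasz. The Toll adaptor tube (tub) had 2.68 and 4.34 FPKM in 2.4x bcd and 17.1 and 24.1 FPKM in hb RNAi. The RNA-binding protein gene rumpelstiltskin (rump), which binds nanos RNA, had 48.1 and 48 FPKM in 2.4x bcd, against 157 and 195 FPKM in hb RNAi, a fall by 1.84 log2 units. Aldolase (Ald), an enzyme of glycolysis, had 178 and 181 FPKM in 2.4x bcd and 462 and 425 FPKM in hb RNAi. The pigmentation gene yellow (y) had 0.491 and 0.111 FPKM in 2.4x bcd and 5.21 and 6.72 FPKM in hb RNAi. Vermilion (v), an eye colour gene also used as a marker in transgenes, had 0.145 and 0.244 FPKM in 2.4x bcd and 85.8 and 3.52 FPKM in hb RNAi, and was not called (limma adjusted p = 0.126). The high value of v rested on the anterior slices of hb RNAi embryo 1, with 254 FPKM in its anterior region.

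**Figure D1:**
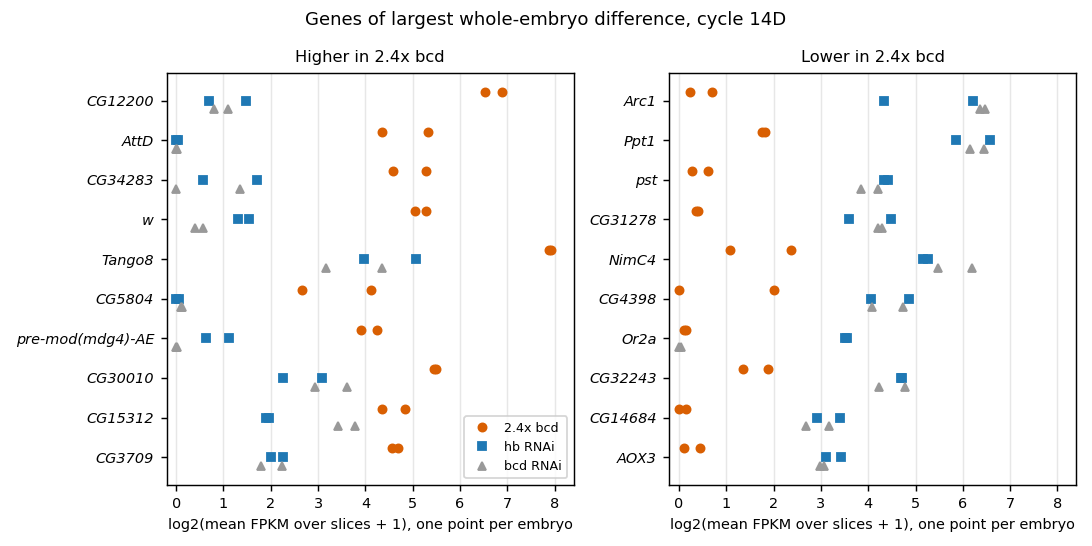
Mean FPKM per embryo, as log2(FPKM + 1) on the horizontal axis, for the 10 genes of largest positive and the 10 of largest negative whole-embryo difference, with 2 points per line and the bcd RNAi embryos added for context. The 2.4x bcd points (circles) do not overlap the hb RNAi points (squares) for any of the 20 genes, and for Or2a the bcd RNAi points (triangles) lie with 2.4x bcd at or near 0.

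The same comparison was made in each region to ask where along the axis the lines differed. Within the anterior region 22 genes were called higher in 2.4x bcd (0.368% of those tested) and 39 lower (0.652%). In the middle region 4 were called higher (0.0669%) and 5 lower (0.0836%), and in the posterior region 21 were higher (0.351%) and 25 lower (0.418%). In all, 85 genes were called in the whole embryo or a region, 36 higher and 49 lower in 2.4x bcd. The sign of the difference was the same in all 4 fits for 82 of the 85. The anterior and posterior calls overlapped: 10 genes were higher at both ends, 45.5% of the anterior and 47.6% of the posterior list, and 16 were lower at both ends, 41.0% and 64.0% of those lists. The genes called in the whole embryo and in every region were Arc1, CG12200, CG7433, Or2a, Ppt1, pre-mod(mdg4)-AE, pst and w. These 8 genes thus differed along the whole axis.

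The counts by region also moved with single embryos. Without 2.4x bcd embryo 1 they were 0 in the anterior, 7 in the middle and 12 in the posterior region, and without 2.4x bcd embryo 2 they were 6, 5 and 18. Without hb RNAi embryo 1 they were 97, 38 and 111, and without hb RNAi embryo 2 they were 343, 91 and 523. CG12200 in the middle region kept its call without any 1 of the embryos, and so did 10 genes in the posterior region. No gene of the anterior region did.

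**Figure D2:**
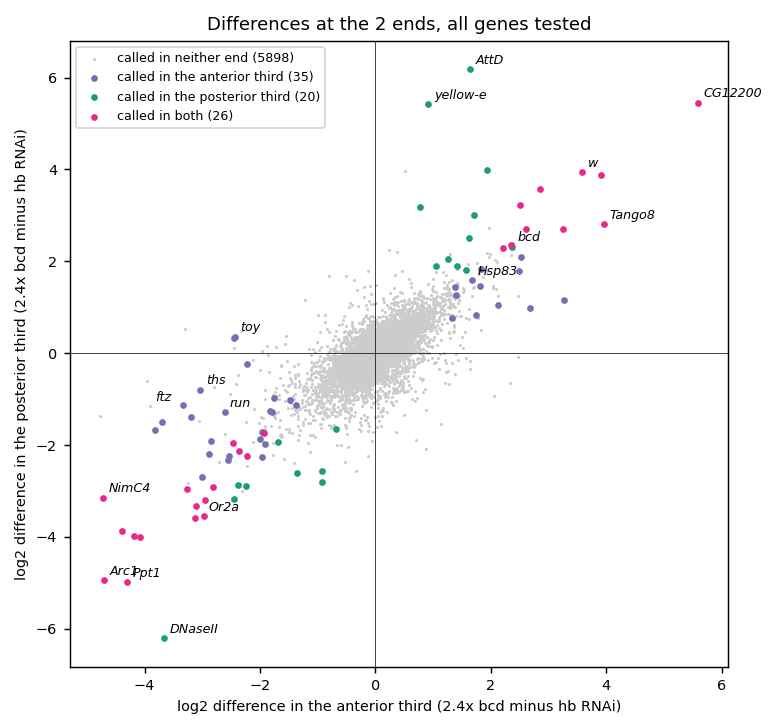
The log2 difference, 2.4x bcd minus hb RNAi, in the anterior region (horizontal axis) and in the posterior region (vertical axis) for each of the 5979 genes tested. Of these, 35 genes were called in the anterior and not the posterior region, 20 in the posterior and not the anterior region, and 26 in both. Most called genes lie in the lower left and upper right quadrants, and AttD at 6.18 and DNaseII at -6.20 stand farthest along the posterior axis.

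Several genes were called in the anterior region and not in the whole embryo. Among the higher of these, the largest difference was that of CG44296, with 8.96 and 8.30 FPKM in 2.4x bcd, while it was listed at 0 in both hb RNAi embryos. Its exons overlap those of sel on the opposite strand. Escargot (esg), a zinc-finger repressor of the Snail family, had 48.9 and 51.6 FPKM in 2.4x bcd, against 14.2 and 14.6 FPKM in hb RNAi (1.73 log2 units, limma adjusted p = 0.0447). Cirl, a latrophilin-type adhesion receptor, had 35.4 and 22.4 FPKM in 2.4x bcd and 2.81 and 6.15 FPKM in hb RNAi. In these genes both 2.4x bcd embryos stood above both hb RNAi embryos.

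The Hsp90 gene Hsp83, whose maternal RNA is degraded in the soma and kept in the germ plasm, had 952 and 826 FPKM in the anterior region of 2.4x bcd, against 253 and 306 FPKM in hb RNAi. The difference was 1.67 ± 0.26 log2 units (SE; limma adjusted p = 0.024). Over the whole embryo it was 1.72 log2 units and not called (limma adjusted p = 0.0664). In bcd RNAi the anterior region had 37.9 and 28.2 FPKM. The single wild-type embryos, made with another kit, had 76.5 FPKM there at cycle 14D and 252 FPKM at cycle 14E. Whether the anterior RNA was maternal or made by the zygote was not tested. Hsp83 shares exons with CG14966 on the opposite strand.

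Lower in the anterior region were thisbe (ths), an FGF ligand, and wntD, a Wnt that restrains Toll signalling. The ths gene had 0.297 and 0.615 FPKM in 2.4x bcd, against 6.79 and 17 FPKM in hb RNAi, and fell by 3.03 log2 units (limma adjusted p = 0.024). The wntD gene had 4.42 and 4.30 FPKM in 2.4x bcd, against 21.3 and 18.8 FPKM in hb RNAi. Miranda (mira), an adaptor of asymmetric division in neuroblasts, had 87.9 and 60.7 FPKM in 2.4x bcd, against 312 and 197 FPKM in hb RNAi. The egg activation gene plutonium (plu) had 19.7 and 9.24 FPKM in 2.4x bcd and 94.5 and 66.8 FPKM in hb RNAi, and was also called in the posterior region. Esp was listed at 0 in the anterior region of both 2.4x bcd embryos and had 6.39 and 22.1 FPKM in hb RNAi. CG1673 had 0.0129 and 0.01 FPKM in 2.4x bcd and 4.26 and 18.9 FPKM in hb RNAi. The hb RNAi embryos differed from each other by more than 2 times for ths, Esp and CG1673.

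The largest posterior differences, beside CG12200, belonged to AttD, yellow-e and DNaseII. AttD had 50.9 and 101 FPKM in 2.4x bcd and was listed at 0 in both hb RNAi embryos. The log2 difference of 6.18 is set in part by the added 1 FPKM (limma adjusted p = 0.000511). Yellow-e, of the family of the pigmentation gene yellow, had 24.7 and 78.8 FPKM in 2.4x bcd, against 0.103 and 0.01 FPKM in hb RNAi (5.42 log2 units, limma adjusted p = 0.00219). In the slice profiles its hb RNAi signal peaked near the anterior end, at 11.9% and 10.4% of the slices, with 22.2 and 61.3 FPKM. In 2.4x bcd it peaked at 82.5% and 67.5%, with 49.8 and 92.9 FPKM. DNaseII, an acid nuclease of lysosomes, had 0.607 and 5 FPKM in the posterior region of 2.4x bcd, against 327 and 158 FPKM in hb RNAi. It fell by 6.20 log2 units there (limma adjusted p = 0.00826). It was not called in the anterior region, where its difference was also negative. The bcd RNAi embryos had 36.3 and 268 FPKM of DNaseII in the posterior region. All 3 genes were separated by line with no overlap.

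The 9 genes of the middle region were the 8 called everywhere and yellow-e. CG12200 had 109.6 and 104.5 FPKM there in 2.4x bcd, against 0.281 and 1.79 FPKM in hb RNAi (5.84 log2 units, limma adjusted p = 0.00296). Or2a was listed at 0 in the middle region of both 2.4x bcd embryos and had 11.6 and 12.2 FPKM in hb RNAi. The most abundant of the 9 was CG7433, whose exons overlap those of Tom20, with 66.5 and 61.2 FPKM in 2.4x bcd and 312 and 306 FPKM in hb RNAi. It fell by 2.26 log2 units in the middle, by 2.37 in the anterior and by 2.13 in the posterior region. Yellow-e had 8.11 and 27.3 FPKM in 2.4x bcd and 0.124 and 0.0229 FPKM in hb RNAi. None of these groups overlapped.

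Whether a difference itself differed between the ends was tested within the embryos, as the anterior minus the posterior log2 value. No gene passed in the positive direction (0% of the genes tested), and 1 passed in the negative direction (0.0167%). That gene was AttD, at -4.55 log2 units (limma adjusted p = 0.0287). At an unadjusted p under 0.05, 272 genes were positive and 201 negative. Yellow-e had -4.51 log2 units and did not pass (limma adjusted p = 0.0855). No gene was called in this contrast without hb RNAi embryo 1, and 1 gene other than AttD without hb RNAi embryo 2. Nor was any called without the terminal slices, without the filter on low values, with a pseudocount of 0.1 FPKM or with only the 4 embryos in the fit. AttD was 1 of 8 genes called without 2.4x bcd embryo 1, of 5 without 2.4x bcd embryo 2, of 5 with a pseudocount of 5 FPKM and of 6 with kallisto TPM. For the middle minus the ends, no gene was called by limma in either direction (0% and 0%), with 133 positive and 139 negative genes at an unadjusted p under 0.05. Without 2.4x bcd embryo 2, 3 genes were called. Calls in these 2 contrasts thus depended on the setting and on single embryos.

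**Figure D3:**
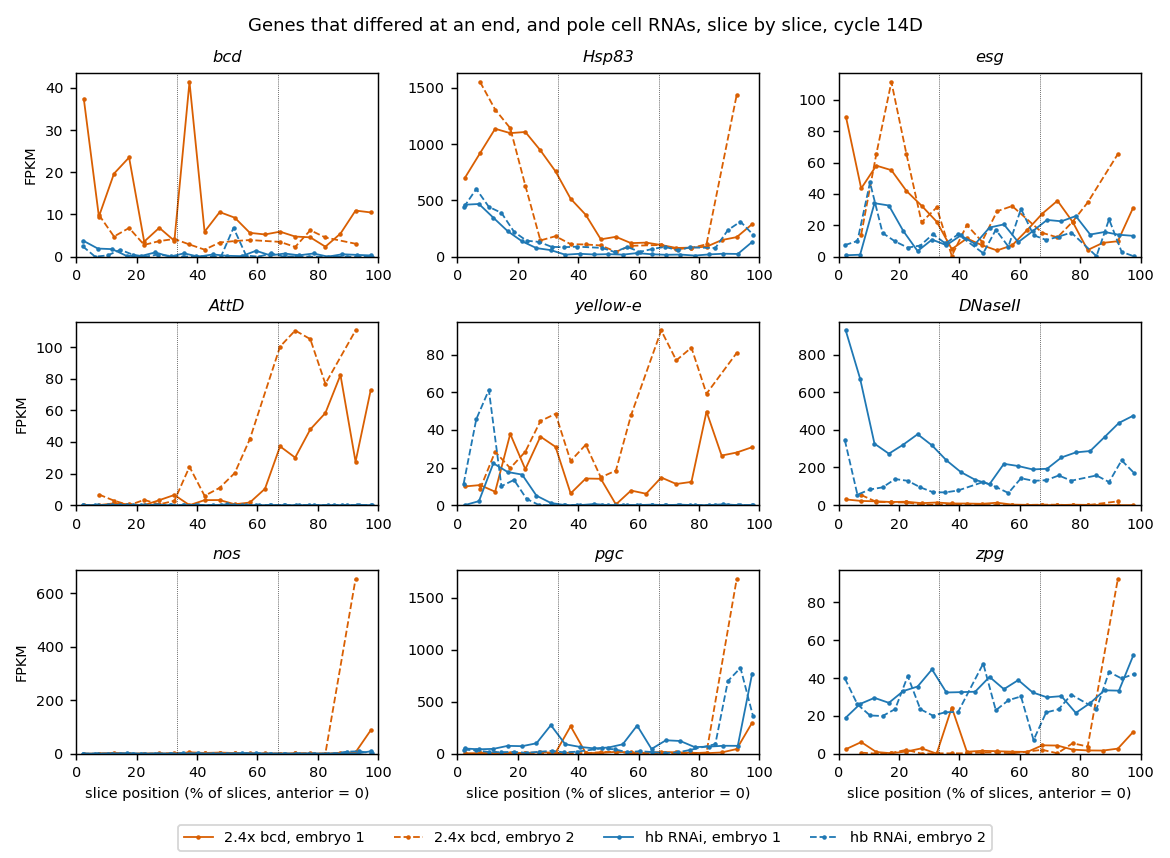
FPKM in each slice against slice position (percent of the slices, anterior at 0) for 9 genes, with 2.4x bcd in orange, hb RNAi in blue, embryo 1 as a solid and embryo 2 as a dashed line, and dotted lines at the borders of the 3 regions. AttD is at most 0.46 FPKM in any hb RNAi slice and peaks at 82.4 and 111 FPKM toward the posterior end of the 2.4x bcd embryos, DNaseII reaches 928 and 345 FPKM in hb RNAi and 30.2 and 53.9 FPKM in 2.4x bcd, and nos peaks at the posterior end of 2.4x bcd embryo 2 with 653 FPKM.

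None of the 5 trunk gap genes was called in any region. Their median difference was -0.06 log2 units over the whole embryo, against 0.04 over all genes. Kr, which is active in a central domain and is repressed by high Hunchback, had 33.7 and 11.1 FPKM in the anterior region of 2.4x bcd and 89.7 and 136 FPKM in hb RNAi. The groups did not overlap, and the difference was -2.44 ± 0.49 log2 units (SE; limma adjusted p = 0.0636). In the middle region Kr had 111 and 92.3 FPKM in 2.4x bcd, between the 254 and 37.4 FPKM of the hb RNAi embryos. Its highest slice lay at 62.5% and 47.5% of the slices in 2.4x bcd, against 40.5% and 31.2% in hb RNAi. The centre of its FPKM, the mean slice position weighted by FPKM, was 53.7% and 49.1% in 2.4x bcd, against 40.4% and 36.0% in hb RNAi, with 36.8% and 30.8% in bcd RNAi. Both 2.4x bcd centres lay behind both hb RNAi centres. Centres were computed after the values were seen and were not tested. With 2 embryos each, an exact two-sided permutation test could not go below p = 0.333.

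The other trunk gap genes varied as much between embryos as between lines. The abdominal gap gene kni had 52.5 and 47.9 FPKM in the middle region of 2.4x bcd, against 216 and 72.9 FPKM in hb RNAi, which do not overlap (-1.31 log2 units, limma adjusted p = 0.507). Over the whole embryo kni had 96.5 and 38.6 FPKM in 2.4x bcd and 123 and 41.0 FPKM in hb RNAi. Its neighbour knrl had 36.5 and 11.8 FPKM in 2.4x bcd and 19.4 and 9.79 FPKM in hb RNAi. Giant (gt), with an anterior and a posterior domain, had 60.3 and 52.3 FPKM in 2.4x bcd, between the 122 and 27.9 FPKM of the hb RNAi embryos. For all 3 genes the whole-embryo ranges of the lines overlapped.

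The terminal gap genes act downstream of the Torso receptor at both ends. Tailless (tll) had 229 and 190 FPKM in 2.4x bcd, against 110 and 76.6 FPKM in hb RNAi, without overlap (1.17 ± 0.33 log2 units SE, limma adjusted p = 0.167). Both its ends showed the same order. Within the anterior region tll had 219 and 128 FPKM in 2.4x bcd and 77.3 and 68.8 FPKM in hb RNAi, and in the posterior region 429 and 453 FPKM in 2.4x bcd and 250 and 160 FPKM in hb RNAi. Huckebein (hkb) had 165 and 113 FPKM in 2.4x bcd and 92.4 and 85.2 FPKM in hb RNAi (0.61 log2 units, limma adjusted p = 0.695). Neither was called.

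**Figure D4:**
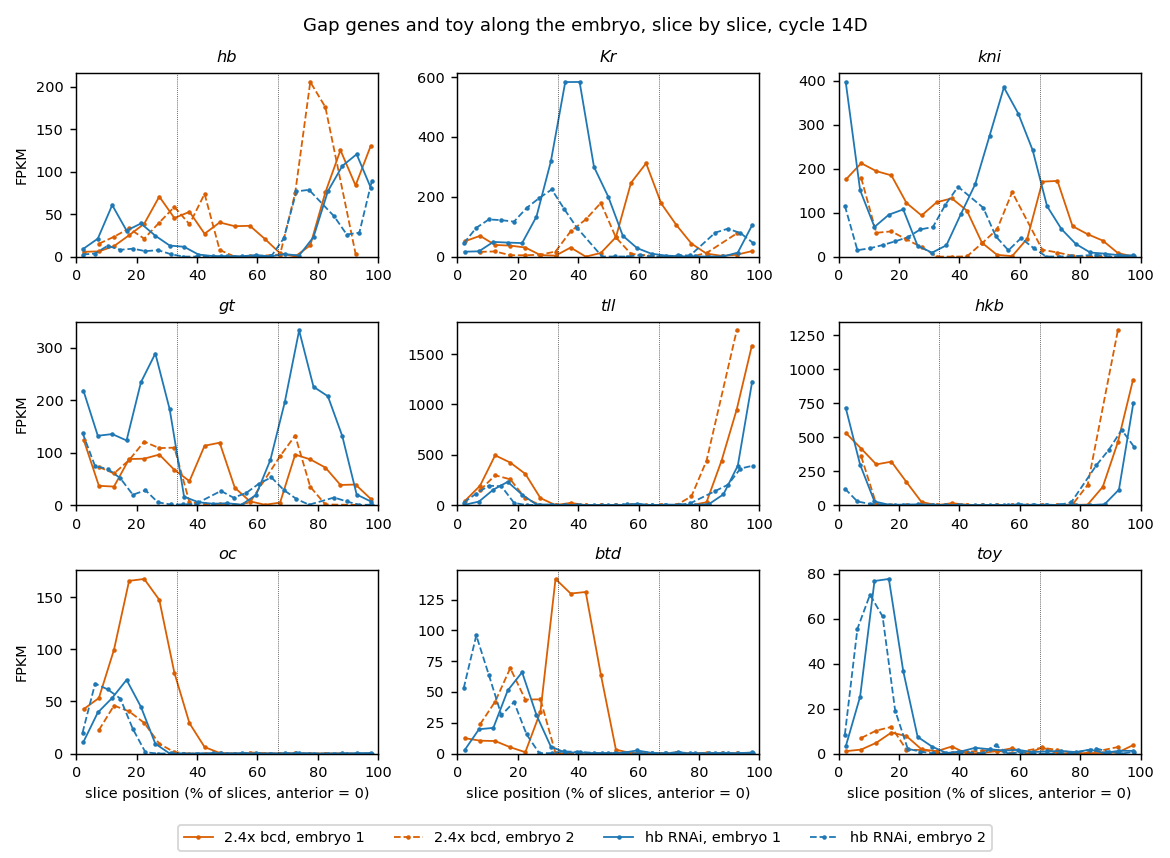
FPKM in each slice against slice position (percent of the slices, anterior at 0) for the gap genes hb, Kr, kni, gt, tll, hkb, oc and btd and for toy, with 2.4x bcd in orange and hb RNAi in blue, embryo 1 solid and embryo 2 dashed. The Kr peaks of 2.4x bcd lie at 62.5% and 47.5% of the slices and those of hb RNAi at 40.5% and 31.2%, and toy reaches 77.8 and 70.8 FPKM in hb RNAi but 9.38 and 11.9 FPKM in 2.4x bcd.

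Of the head gap genes, 10 of 12 reached the expression minimum, and 1 was called. It was twin of eyeless (toy; FBgn0019650, chromosome 4 from 989725 to 1007922), a Pax6 gene of the eye and head primordia. In the anterior region toy had 3.99 and 5.55 FPKM in 2.4x bcd and 32.9 and 27.3 FPKM in hb RNAi. Both lines were tight and far apart, and toy fell by 2.44 ± 0.38 log2 units (SE; limma adjusted p = 0.024). The bcd RNAi embryos had 1.03 and 0.973 FPKM there, so hb RNAi was the highest of the 3 lines. In the middle region toy had 1.17 and 0.756 FPKM in 2.4x bcd and 1.36 and 0.766 FPKM in hb RNAi. The difference between the ends was -2.79 log2 units and did not pass (limma adjusted p = 0.233). Its peak slice lay at 17.5% in both 2.4x bcd embryos, against 16.7% and 10.4% in hb RNAi.

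Orthodenticle (oc) and buttonhead (btd), 2 targets of Bicoid in the head, were not called, and their mean centres lay farther from the tip in 2.4x bcd. The centre of oc was at 20.8% and 16.5% of the slices in 2.4x bcd, against 15.3% and 10.7% in hb RNAi. The centre of btd was at 36.2% and 19% in 2.4x bcd, against 20.4% and 11.0% in hb RNAi. The oc ranges did not overlap, and those of btd did. The first slice of 2.4x bcd embryo 2 had no values, so both its centres leave out the anterior tip. In 2.4x bcd embryo 1, btd had 54.9 FPKM in the middle region, against 0.282 FPKM in 2.4x bcd embryo 2 and 0.903 and 0.659 FPKM in hb RNAi. Embryo 1 likewise had the most oc of the 4, at 108 FPKM in its anterior region, beside 24.9 FPKM in 2.4x bcd embryo 2 and 32.7 and 28.4 FPKM in hb RNAi. The bcd RNAi embryos had at most 0.01 FPKM of both genes in the anterior region. The remaining tested head genes, ems, slp1, slp2, cnc, croc, Optix and fkh, had whole-embryo differences between -0.42 and 0.57 log2 units. Eyeless (ey) and Lim1 were below the minimum.

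The primary pair-rule genes, the first to form stripes, had mostly negative differences, and 2 were called lower in 2.4x bcd. Their median difference was -1.31 log2 units over the whole embryo and -2.05 in the anterior region, against 0.04 and 0.05 over all genes. Of the 6, 5 had negative whole-embryo differences, beside 2753 of the 5979 genes tested. The fushi tarazu gene (ftz; FBgn0001077, 3R from 6864324 to 6866244) had 75.9 and 99.3 FPKM in 2.4x bcd, against 271 and 222 FPKM in hb RNAi, and fell by 1.49 ± 0.26 log2 units (SE; limma adjusted p = 0.0318). Within the anterior region ftz had 0.980 and 50.6 FPKM in 2.4x bcd and 128 and 179 FPKM in hb RNAi, where the 2.4x bcd embryos were too far apart for a call (limma adjusted p = 0.188). The bcd RNAi embryos had 615 and 560 FPKM over the whole embryo. For ftz the 3 lines did not overlap, with 2.4x bcd lowest, hb RNAi between and bcd RNAi highest.

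Runt (run) was called in the anterior region, with 3.10 and 9 FPKM in 2.4x bcd, against 29.5 and 49.3 FPKM in hb RNAi. It fell by 2.61 ± 0.45 log2 units (SE; limma adjusted p = 0.0373), and bcd RNAi had 137 and 149 FPKM. Over the whole embryo run had 29.2 and 19.1 FPKM in 2.4x bcd and 61.1 and 73.5 FPKM in hb RNAi (limma adjusted p = 0.0654). Even-skipped (eve) had 6.34 and 31.1 FPKM in the anterior region of 2.4x bcd, against 163 and 98.5 FPKM in hb RNAi (-3.06 log2 units, limma adjusted p = 0.0716). Odd-skipped (odd) had 19.2 and 22.2 FPKM there in 2.4x bcd and 62.4 and 51.5 FPKM in hb RNAi (limma adjusted p = 0.0635). In the anterior region no value of eve, run, ftz or odd in 2.4x bcd reached the lowest value in hb RNAi, as held for 950 of all 5979 genes tested (15.9%).

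Hairy (h) had the opposite sign. Within the anterior region h had 143 and 146 FPKM in 2.4x bcd, against 67.6 and 59.1 FPKM in hb RNAi (1.18 log2 units, limma adjusted p = 0.0716). In the posterior region it had 137 and 146 FPKM in 2.4x bcd, within the 167 and 118 FPKM of hb RNAi. Paired (prd) had 36.7 and 70.4 FPKM over the whole embryo in 2.4x bcd and 105 and 74.1 FPKM in hb RNAi. Neither h nor prd was called in any region.

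**Figure D5:**
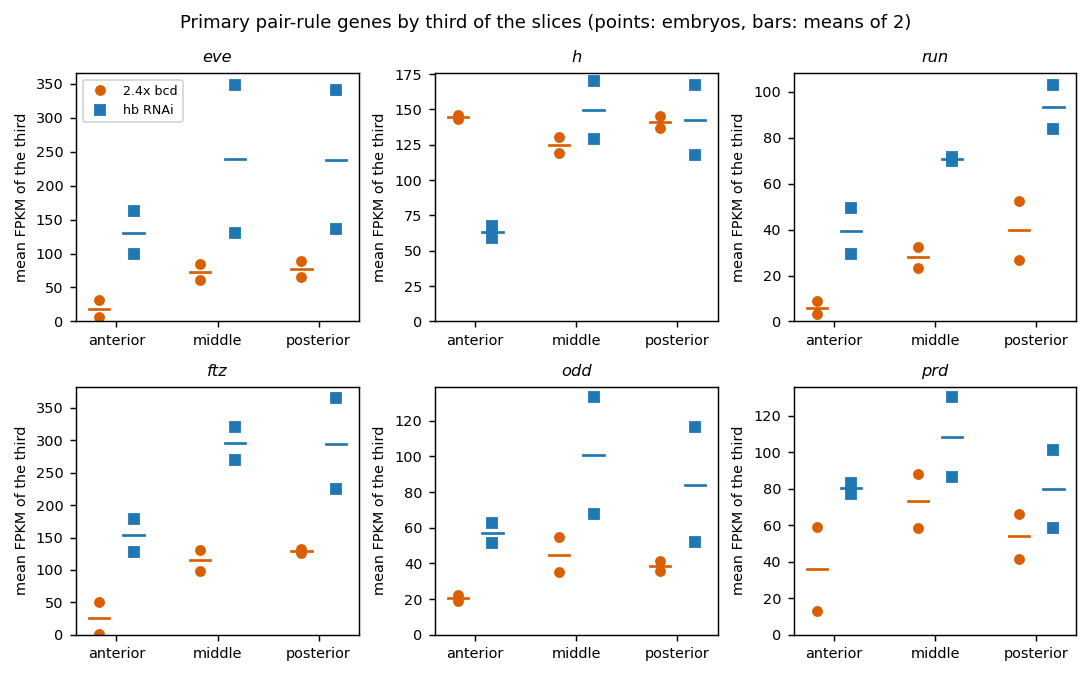
Mean FPKM in the anterior, middle and posterior region for the 6 primary pair-rule genes, with 2.4x bcd (circles) left of hb RNAi (squares), 1 point per embryo and a bar at the mean of the 2. In the anterior region both 2.4x bcd embryos lie below both hb RNAi embryos for eve, run, ftz, odd and prd, and above them for h.

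No later segmentation gene was called. Of the 8 tested secondary pair-rule and timing genes, 6 had negative whole-embryo differences, with a median of -0.82 log2 units. Odd-paired (opa), a timing factor that comes on late in cellularization, had 90.7 and 97.2 FPKM in 2.4x bcd, against 180 and 202 FPKM in hb RNAi (limma adjusted p = 0.105). Drumstick (drm) had 1.42 and 1.82 FPKM in 2.4x bcd, against 8.12 and 10.2 FPKM in hb RNAi (limma adjusted p = 0.0642). All 7 segment polarity genes tested had negative differences, with a median of -0.36 log2 units. Over all genes tested 46.0% had negative whole-embryo differences, with a median of 0.04 log2 units. Wingless (wg), a Wnt ligand of the segment border, had 6.67 and 3.43 FPKM in 2.4x bcd, against 14.7 and 15.2 FPKM in hb RNAi (limma adjusted p = 0.239). Of 7 Hox genes and cofactors, which give segments their identity, 6 were negative over the whole embryo, and all 7 in the anterior region, where the median was -0.96 log2 units. There Ubx had 0 and 0.0200 FPKM in 2.4x bcd and 1.38 and 4.55 FPKM in hb RNAi, and Antp had 0.104 and 0.0317 FPKM in 2.4x bcd and 0.813 and 6.67 FPKM in hb RNAi. These Hox levels were low in both lines.

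The POU and neural genes known to respond to Hunchback were negative in the 5 tested members, with a whole-embryo median of -0.93 log2 units and -1.98 in the middle region. Kr is a member of this list too. Nubbin (nub), a POU-domain factor, had 14.1 and 18 FPKM in 2.4x bcd and 68.0 and 44.9 FPKM in hb RNAi over the whole embryo (-1.73 log2 units, limma adjusted p = 0.0544). In the middle region nub had 4.28 and 23.8 FPKM in 2.4x bcd, against 90.0 and 80.6 FPKM in hb RNAi. Its paralog pdm2 had 4.92 and 16.3 FPKM there in 2.4x bcd and 34.3 and 43.9 FPKM in hb RNAi, and castor (cas) 0.0400 and 0.666 FPKM in 2.4x bcd and 3.24 and 8.73 FPKM in hb RNAi. The lines did not overlap for these 3 genes in the middle region, as held with lower values in 2.4x bcd for 904 of all 5979 genes (15.1%), and none was called.

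Dorsal genes had another arrangement. Of the 18 dorsal ectoderm and amnioserosa genes tested, 14 had positive differences in the anterior region (median 0.34 log2 units), but 16 had negative ones in the middle region (median -0.79) and 15 in the posterior region (median -0.42). None was called. The within-embryo difference between anterior and posterior had a median of 0.97 log2 units, against -0.02 over all genes. The homeobox gene zen2 had 12.8 and 7.18 FPKM in the anterior region of 2.4x bcd and 5.62 and 4.18 FPKM in hb RNAi, and 4.14 and 7.74 FPKM in the posterior region of 2.4x bcd and 9.39 and 11.9 FPKM in hb RNAi. Summed over zen, peb, tup and Doc1, amnioserosa markers had 219 and 170 FPKM in the anterior region of 2.4x bcd, against 147 and 59.7 FPKM in hb RNAi. Taken singly, zen, peb and tup overlapped between the lines there. Slices hold the RNA of all cells at a position, so fewer cells of a type and less RNA per cell cannot be told apart.

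Of 10 mesoderm and FGF pathway genes, 9 had negative whole-embryo differences (median -0.69 log2 units), and only ths in the anterior region was called. The repressor snail (sna) had 92.5 and 65.9 FPKM in 2.4x bcd, against 199 and 109 FPKM in hb RNAi. The summed mesoderm markers twi, sna and htl had 371 and 239 FPKM in 2.4x bcd and 431 and 375 FPKM in hb RNAi. Neuroectoderm and midline genes split, with 3 of 9 positive and 6 negative and a median of -0.20 log2 units. The proneural gene achaete (ac) had 22 and 25.5 FPKM in the anterior region of 2.4x bcd, against 5.29 and 15.7 FPKM in hb RNAi, and l(1)sc had 31.9 and 57.0 FPKM there in 2.4x bcd, against 71.0 and 122 FPKM in hb RNAi. Neither was called.

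Maternal RNAs did not move together. Of 17 tested RNAs known to be cleared by cycle 14, 10 had positive and 7 negative whole-embryo differences. Called among them were Hsp83 in the anterior region and bcd in the posterior region, both higher in 2.4x bcd. Also called was plu at both ends, which was lower. Whether the anterior Hsp83 RNA was maternal was not tested. In the posterior region bcd had 6.35 and 3.93 FPKM in 2.4x bcd, against 0.441 and 0.0143 FPKM in hb RNAi (2.32 log2 units, limma adjusted p = 0.0484). This call held under 1 of 12 other settings and in 2 of the 4 fits that left out an embryo. Of the 9 tested members of the maternal anteroposterior system, 8 had positive whole-embryo differences, with a median of 0.27 log2 units.

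RNAs of the germ plasm and pole cells, the future germ line at the posterior tip, were uneven between embryos. The translational repressor nanos (nos) had 13.9 and 131 FPKM in the posterior region of 2.4x bcd and 1.31 and 2.46 FPKM in hb RNAi (3.97 ± 0.86 log2 units SE, limma adjusted p = 0.0846). Polar granule component (pgc), which holds back transcription in pole cells, had 55.6 and 340 FPKM there in 2.4x bcd, against 186 and 289 FPKM in hb RNAi. The pgc ranges overlapped and those of nos did not. In 2.4x bcd embryo 2 the nos value rested on 1 slice at 92.5% of the slices, with 653 FPKM, next to which the last slice had no values. Of the 13 members tested, zpg was called lower in 2.4x bcd, in the whole embryo and in the anterior region, and Hsp83 higher in the anterior region. In hb RNAi zpg was spread along the axis, with centres at 52.0% and 51.3% of the slices. In 2.4x bcd embryo 2 zpg peaked at 92.5% of the slices, beside nos. Over the anterior region zpg had 1.93 and 0.517 FPKM in 2.4x bcd, against 30.7 and 26.8 FPKM in hb RNAi.

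All 8 heat shock and stress genes tested had positive whole-embryo differences, with a median of 0.58 log2 units, and 1, Hsp83, was called in 1 region. Hsp23 had 479 and 367 FPKM in 2.4x bcd, against 245 and 90.7 FPKM in hb RNAi (limma adjusted p = 0.373). The chaperone gene Hsc70-4 had 2957 and 3918 FPKM in 2.4x bcd, against 1823 and 2372 FPKM in hb RNAi. Groups did not overlap for either gene.

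The remaining lists held no call of a gene not yet named. JAK-STAT pathway genes had 3 positive and 2 negative whole-embryo differences, and all 5 were positive in the posterior region (median 0.73 log2 units). The 4 Toll receptors and partners of germ-band extension were all negative (median -0.61). Of 5 zygotic cellularization genes, 3 were positive. Among them slam had 812 and 280 FPKM in 2.4x bcd and 545 and 90.3 FPKM in hb RNAi, and the ranges overlapped. Gastrulation genes had 1 positive and 3 negative differences, gut primordium regulators 6 and 5, and early transient zygotic genes 9 and 12.

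The bcd RNAi embryos were set beside the called genes to ask which of the 2 lines they resembled. The bcd RNAi mean lay nearer to hb RNAi than to 2.4x bcd for 18 of the 20 genes called higher over the whole embryo. The same held for 30 of the 32 called lower, beside 62.6% of all genes tested. The expression minimum was a mean over all 6 embryos, bcd RNAi included. Some lower genes of low FPKM, such as y and CG17834, passed it only through bcd RNAi. Their place on the hb RNAi side was thus set in part by the filter. CG12200 had 1.14 and 0.745 FPKM in bcd RNAi, w had 0.318 and 0.471 FPKM and Arc1 had 80.8 and 88.2 FPKM, all on the hb RNAi side. The exceptions were CG15312 and Taf11 among the higher genes and Gasz and Or2a among the lower ones. Gasz had 3.90 and 3.79 FPKM in bcd RNAi, within the 3 and 4.40 FPKM of 2.4x bcd, and Or2a had 0 and 0.0352 FPKM. Of the 4, Gasz and Or2a were therefore high in hb RNAi alone among the 3 lines. Within the anterior region the lower genes nearer to 2.4x bcd were CG1673, Gasz, Or2a, toy and yellow-e2, 5 of 39. The single wild-type embryo of cycle 14D, made with another kit, was nearer to 2.4x bcd than to hb RNAi for 7 of the 20 higher genes (35.0%) and 18 of the 32 lower genes (56.2%), beside 48.4% of all genes. Among these were rumi, with 79.0 FPKM in wild type, and Arc1, with 0.137 FPKM. CG12200 and Ppt1, with 2.09 and 66.2 FPKM in wild type, were nearer to hb RNAi. Despite its label, this wild-type embryo differed from the 4 embryos in timing genes. In the middle region opa had 0.21 FPKM in it and 38.2 FPKM in wild type at cycle 14E. The 4 embryos had 150 to 271 FPKM of opa there. For nullo the wild-type embryo had 182 FPKM there, against at most 13.3 FPKM in the 4 embryos. The part of stage in these wild-type shares was not tested. Both RNAi lines carry the same driver and had aged mothers, and these cannot be told apart from the knockdowns.

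Several measures of the embryos as a whole were set beside these results. As readouts of stage, 11 of the 20 higher genes (55.0%) and 18 of the 32 lower genes (56.2%) were higher in wild type at cycle 14D than at 14E, beside 52.9% of all genes. The part of stage in the results was not tested. By chromosome, 34 of the 85 called genes (40.0%) lay on 3R, which holds 24.6% of the genes tested, and 8 on 2L (9.41%, against 17.5% of those tested). The part of strain background in this was not tested. Of the called genes, 29 share exon sequence with another annotated gene. Sex readouts varied within lines. The female splicing regulator Sxl had 124 and 11.6 FPKM in 2.4x bcd and 41.4 and 179 FPKM in hb RNAi. The dosage compensation gene msl-2 had 36.8 and 73.9 FPKM in 2.4x bcd and 55.9 and 16.2 FPKM in hb RNAi. Summed with roX1 and roX2, the male dosage markers had 526 and 194 FPKM in 2.4x bcd and 427 and 243 FPKM in hb RNAi. Much of this sum was roX1. In the middle region roX1 had 478 of 521 and 96.7 of 181 FPKM in 2.4x bcd. In hb RNAi it had 411 of 471 and 200 of 219 FPKM there. The embryo with more Sxl had the higher sum in 2.4x bcd and the lower sum in hb RNAi. For msl-2 alone, the embryo with more Sxl had the lower value in both lines. The 3 sperm genes summed to 0 and 0 FPKM in 2.4x bcd and 0.466 and 0.00727 FPKM in hb RNAi, with Mst84Da at 0 in all 4 embryos. Yolk and hemocyte markers (6 genes) summed to 55.7 and 39.4 FPKM in 2.4x bcd and 38.7 and 38.8 FPKM in hb RNAi. In the middle region srp alone made up 85.5 of 89.9 and 42.6 of 43.7 FPKM in 2.4x bcd. It made up 40.9 of 41.9 and 23.3 of 23.4 FPKM there in hb RNAi. Yp1, Yp2, Yp3, Pxn and He were each at most 2.145 FPKM there.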

How the data were processed

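RNA-seq libraries of single slices were compared, with the embryo as the replicate. The authors aligned reads with STAR 2.3.0.1 and deposited FPKM per gene and slice, made with Cufflinks 2.2.1. Slices that failed their quality limits hold no values and were left out of the means. A second deposited table, made by the authors with kallisto 0.42, was read as TPM, because each column sums to the same total although its columns are named FPKM. FPKM carry no counts, so depth was estimated from the FPKM steps of 1577 single-transcript genes of at least 2000 bases.

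Mean FPKM of each embryo, overall and in 3 equal regions of slice midpoints (slice 1 anterior, checked with oc, pgc and nos), were fitted as log2(FPKM + 1) with limma 3.58.1 in R 4.3.3 (lmFit, eBayes with trend). The fit held the 2 embryos each of 2.4x bcd, hb RNAi and bcd RNAi at cycle 14D. Spread was pooled over these lines. The median difference between replicates was 0.26 log2 units in bcd RNAi and 0.50 in hb RNAi, so the pooled spread can understate that of hb RNAi. Genes had a mean of at least 3 FPKM over the 6 embryos, and p-values were Benjamini-Hochberg adjusted over 5979 genes at 0.05. Differences are 2.4x bcd minus hb RNAi, and a log2 difference of log2(FPKM + 1) understates changes of low genes. On simulated whole-embryo data the fit recovered 46% of the genes changed by 1.5 log2 units and 96% of those changed by 3. The simulated spread of a gene was the same in all lines, unlike in the data, where the hb RNAi embryos were less alike. Recovery in the data may thus be lower. A gene that was not called may therefore still differ.

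Genes named were bcd, hb, all gap and primary pair-rule genes, and, among called genes whose groups did not overlap, the 10 largest whole-embryo differences and the 5 largest in each region and within-embryo contrast, in each direction, with up to 4 members of every other list. Members, lists and rules were chosen with earlier results of these data known. Others were chosen after their values were seen. Gene positions come from the Ensembl annotation of genome release 6, to which 13452 of 13587 gene symbols matched. Strand was not marked by the kit. Promoter sequences were not analysed here. Python 3.11.15, pandas 2.3.3, numpy 2.4.6 and matplotlib 3.10.9 were used.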

Additional observations from a re-analysis of the deposited data

Results flagged for a closer look

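AttD was called in the test of whether the difference between the lines itself differed between the anterior and the posterior end of the embryo, a call that several other settings did not keep. The difference between 2.4x bcd and hb RNAi in the anterior minus posterior value was -4.55 log2 units (limma adjusted p = 0.0287). AttD was listed at 0 in the posterior region of both hb RNAi embryos, so the contrast rests on the values along the 2.4x bcd embryos, and its size depends on the added 1 FPKM.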

How the results depend on the processing

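None of the 169 called gene results turned its direction under the alternatives run. Over the whole embryo 52 genes were called, with 17 when no filter on low values was used and 29 with only the 4 embryos compared in the fit. Leaving out 1 embryo at a time gave 9 to 722. In the anterior region 61 became 16 without the filter, 28 with genes at 15 FPKM in a slice and 33 without terminal slices, and 0 to 343 when an embryo was left out. In the middle region 9 became 0 without the filter, 2 at 15 FPKM in a slice, 4 with only the 4 embryos, 18 with all 8 embryos of cycle 14D and 21 with median-ratio scaling, and 5 to 91 when an embryo was left out. In the posterior region 46 became 8 without the filter, 30 at 15 FPKM in a slice, 30 with only the 4 embryos and 27 with kallisto TPM, and 12 to 523 when an embryo was left out. The 1 gene called between anterior and posterior became 0 with a pseudocount of 0.1 FPKM, without the filter, at 15 FPKM in a slice, with only the 4 embryos and without terminal slices, 5 with a pseudocount of 5 FPKM and 6 with kallisto TPM, and 0 to 8 when an embryo was left out. The middle against the ends gave 0 to 3 when an embryo was left out. Replicate numbers are shared by the labels but do not pair embryos (correlation of deviations 0.174 between 2.4x bcd and hb RNAi, -0.0984 and -0.335 with bcd RNAi). A replicate block gave 58 calls in the whole embryo, 43, 2 and 32 in the anterior, middle and posterior region, and 0 in both within-embryo contrasts. Of 169 called gene results, 148 were also called with a pseudocount of 0.1 FPKM, 138 with 5 FPKM, 97 of 148 with kallisto TPM and 10 without the filter, where 12831 genes were tested. Kallisto TPM moved the median of all genes to 0.16 log2 units over the whole embryo. The causes of these changes were not tested. Precision is limited by 2 embryos per line, by the spread between the hb RNAi embryos and by missing terminal slices in 2.4x bcd embryo 2. With 1 embryo left out, the lone embryo is assumed to vary like the other groups.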
